A study of Mus musculus with 6 samples.

Results

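Aquaporins are membrane channels that let water, and in some members glycerol and other small solutes, follow osmotic gradients across cells. The 9 genes described are Aqp1, Aqp2, Aqp3, Aqp4, Aqp5, Aqp7, Aqp8, Aqp9 and Aqp11, found by gene symbol among the 55331 genes of a whole-testis expression table. The family was selected on the deposited FPKM and q of Aqp5, which was lower in Ptbp1_cKO testes, so the Aqp5 difference is given as a description only. Of the 9 genes, 8 have a test result by the authors' Cuffdiff run, and the same 8 reached 0.1 FPKM (a level in fragments per length of transcript and per library size) in at least one group.

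In the testis, water channels take part in the making of tubule fluid, in its uptake along the efferent ducts, and in the loss of cytoplasm and volume as spermatids become sperm. By sequence and permeability the family is usually divided into classical water channels (Aqp1, Aqp2, Aqp4, Aqp5 and, by many accounts, Aqp8), aquaglyceroporins that also pass glycerol (Aqp3, Aqp7 and Aqp9), and the divergent intracellular Aqp11.

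Polyadenylated RNA came from testes of mice aged 35 days and of mixed strain. The 3 control libraries carried the genotype Ptbp1fl/fl, with floxed alleles of the RNA-binding protein gene Ptbp1 and no Cre. The 3 Ptbp1_cKO libraries carried Ptbp1fl/fl; Amh-Cre+/-, in which the Amh promoter drives the Cre recombinase in Sertoli cells, the somatic cells that nurse the germ cells. The study asked about PTBP1 in Sertoli cells, and the comparison shows which aquaporin transcripts differed between floxed testes with and without Amh-Cre. Both groups were floxed and no group carried Amh-Cre alone, so the deletion and the transgene cannot be told apart. Whether the libraries of a group are separate animals is not in the labels, and p-values may then measure technical spread only. Each group has 1 deposited FPKM per gene, made from its 3 libraries, so no value per library and no SD can be given.

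As a check of the tissue label, the spermatid genes Tnp1 and Prm1 stood at 19773 and 13135 FPKM in control. Ptbp1 itself was at 49.97 FPKM in control and 46.66 FPKM in Ptbp1_cKO (log2 fold change -0.10, q = 0.999 by the authors' deposited table), a whole-gene value that does not check a deletion in Sertoli cells. Low FPKM values fell on discrete steps that gave the weight of a single fragment. If a group value is the mean of its 3 libraries, 1 FPKM over an effective length of 1 kb rested on about 223 fragments in control and 203 in Ptbp1_cKO, and fragment numbers below use these weights and cover counting error only.

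The sequences shown first are those of neighbouring genes of chromosome 15, Aqp5 and Aqp2, that had the lowest levels relative to control. Their sequences upstream of the start sites are given with those of Aqp11, the most abundant member, and Aqp3, the only 1 of the 8 genes with a window whose letters include a TATA box. Promoter windows (250 bases before to 50 after a start site) came from RefSeq on GRCm38.p6, the assembly called mm10, and matched 8 of the 9 genes; Aqp4 had no entry. Only bases outside annotated exons are printed, or at most 30 bases around a motif. The Aqp2 stretch is chr15:99578806-99579054, plus strand, with capitals on a cyclic AMP response half-site (TGACG, here read on the opposite strand) beginning 211 bases before the start site. The Aqp5 stretch is chr15:99590982-99591011, plus strand, with capitals on the GC box (GGGCGG) that begins 34 bases before the start site. For Aqp3, the stretch chr4:41098195-41098224 on the minus strand has its TATA box (TATAAA) in capitals, beginning 29 bases before the start site. For Aqp11, the stretch is chr7:97738290-97738497 on the minus strand and held no motif searched.
Aqp2: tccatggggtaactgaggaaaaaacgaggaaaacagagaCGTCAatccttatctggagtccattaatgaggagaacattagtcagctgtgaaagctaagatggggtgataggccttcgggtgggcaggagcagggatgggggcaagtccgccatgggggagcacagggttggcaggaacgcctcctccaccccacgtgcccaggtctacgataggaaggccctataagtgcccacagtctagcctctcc
Aqp5: cgggggtgcgcgGGGCGGggggctgcgagc
Aqp3: gcaggctgagcgTATAAAgggcgccacctg
Aqp11: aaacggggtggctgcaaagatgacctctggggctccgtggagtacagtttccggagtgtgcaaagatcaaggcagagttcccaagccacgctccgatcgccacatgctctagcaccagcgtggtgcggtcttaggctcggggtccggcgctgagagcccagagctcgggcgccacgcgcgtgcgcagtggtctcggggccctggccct

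The upstream windows of Aqp2 and Aqp5 differed in composition. The Aqp5 window was 79.7% G and C with 46 CpG pairs, a G and C share above that of 98.8% of the 32851 promoter windows, whose median was 52.7% with 7 CpG pairs. The Aqp2 window was 56.0% G and C with 8 CpG pairs. Both strands were searched for the TATA box, the GC box, the CCAAT box (letters CCAAT) and the cyclic AMP half-site, which occur in 13.6%, 35.7%, 37.4% and 20.8% of all windows. Besides the matches in capitals, Aqp5 held 2 further GC boxes, Aqp3 and Aqp1 held 1 each, and neither window of Aqp7, neither window of Aqp9, nor the window of Aqp8 held any of these letters. These are matches of letters, not binding sites. The Aqp5 window ran from 99590778 to 99591077. The Aqp5 start site used for it lies inside the first exon of another annotated Aqp5 transcript, whose start is at 99590782.

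Levels spanned a very wide range, and a few genes accounted for nearly all aquaporin RNA. Aqp11, Aqp7 and Aqp9 together made up 96.9% of the summed FPKM of the 9 genes in control and 97.7% in Ptbp1_cKO. In control the order from high to low was Aqp11, Aqp7, Aqp9, Aqp8, Aqp2, Aqp5, Aqp3, Aqp1 and Aqp4, and all 9 genes held the same rank in Ptbp1_cKO. FPKM is a level per transcript length, so these levels and shares compare between genes only as far as reads were rightly assigned to transcripts and overlapping genes. Neighbours in this order were 1.55-fold (Aqp7 over Aqp9) to 21.9-fold (Aqp1 over Aqp4) apart in control, and without values per library it cannot be said which steps exceed the spread between libraries.

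**Figure D1:**
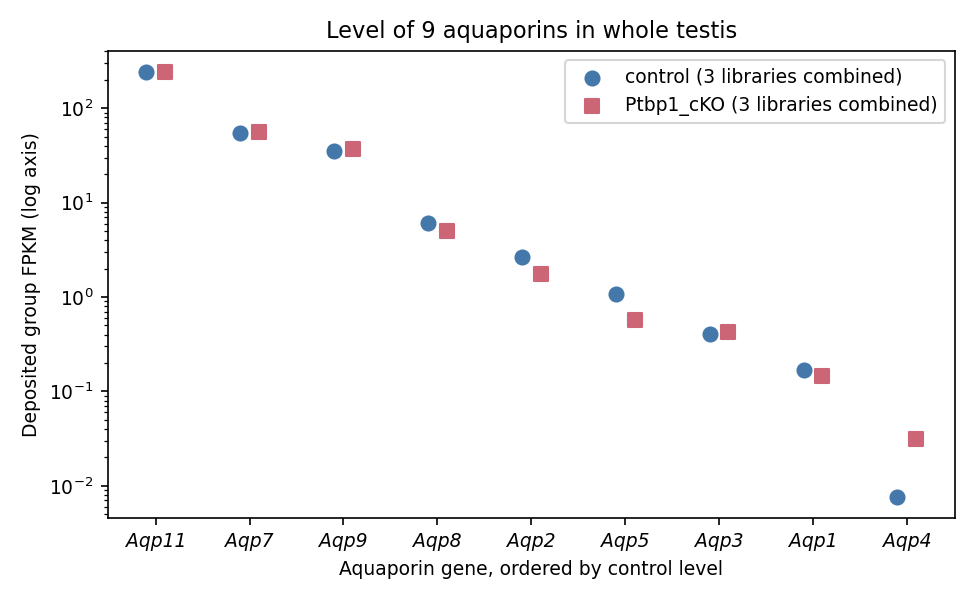
Deposited FPKM of each aquaporin (log axis) in control (circles) and Ptbp1_cKO (squares), 1 value per group from 3 libraries and no error bars, ordered by control level. Aqp11 stood at 239.8 and 242.0 FPKM at one end and Aqp4 at 0.00769 and 0.0311 FPKM at the other.

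Aqp11, an intracellular channel of the endoplasmic reticulum known for kidney cysts in mice that lack it, was by far the most abundant aquaporin. It stood at 239.8 FPKM in control and 242.0 FPKM in Ptbp1_cKO, which the authors' deposited table gives as a log2 fold change of 0.01 and a q of 0.999. Its control level was higher than that of 97.4% of the 22048 tested genes. The gene (ENSMUSG00000042797.9, chromosome 7, 97724006 to 97738289, minus strand, mm10) has 5 annotated transcripts, and its coding transcripts run from 896 to 3737 bp, so its FPKM depends on how reads were divided among them. Both groups were thus nearly level for the main aquaporin transcript of these testes.

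The aquaglyceroporins were also close in the 2 groups. Aqp7, which passes glycerol in fat cells and is present in late spermatids and sperm, stood at 54.3 FPKM in control and 56.5 FPKM in Ptbp1_cKO (by the authors' deposited table, log2 fold change 0.06 and q = 0.999). Aqp9, which passes glycerol, urea and other neutral solutes and is known from liver, epididymis and Leydig cells, stood at 35.0 and 37.3 FPKM (log2 fold change 0.09, q = 0.999 by the authors' deposited table). Aqp3, a glycerol channel of skin and of kidney collecting duct, was low, at 0.406 and 0.424 FPKM (log2 fold change 0.06, q = 0.999 by the authors' deposited table), resting on about 136 and 129 fragments. All of these values were higher in Ptbp1_cKO by at most 1.07-fold, and none passed the threshold of q under 0.05.

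Aqp7 and Aqp3 are neighbours on chromosome 4, with 44582 bp between Aqp7 (ENSMUSG00000028427.13, 41033074 to 41048139) and Aqp3 (ENSMUSG00000028435.8, 41092722 to 41098183), both on the minus strand. Their levels nevertheless lay far apart, at 54.3 and 0.406 FPKM in control. The Aqp9 locus of the authors' deposited table (ENSMUSG00000032204.13, chromosome 9, 71110659 to 71208124) is longer than the annotated gene, which ends at 71168682, and takes in the antisense gene Gm32511. Gm32511 stood at 2.76 and 2.55 FPKM. Since the sources used here do not state that fragments were counted by strand, reads of Aqp9 and Gm32511 cannot be told apart where they overlap. A further annotated gene, Gm47268, also overlaps Aqp9.

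Aqp8, a channel for water and ammonia that is known from germ cells of the testis, stood at 6.07 FPKM in control and 4.95 FPKM in Ptbp1_cKO. Its level was 0.815 of control (log2 fold change -0.30), with an unadjusted p of 0.053 and q = 0.569 by the authors' deposited table. The values rested on about 1613 to 1662 fragments in control and 1193 to 1230 in Ptbp1_cKO, depending on the transcript (ENSMUSG00000030762.11, chromosome 7, 123462291 to 123468004, plus strand). The 5 round spermatid markers (Acrv1, Tssk1, Spaca1, Lyzl1 and Spaca7) also had a lower FPKM in Ptbp1_cKO, 5 of 5, with a sum of 695 FPKM in control and 592 FPKM in Ptbp1_cKO, and none passed the threshold. The 5 spermatocyte markers were lower in 5 of 5, with sums of 676 and 602 FPKM, whereas 4 of 5 elongating spermatid markers were higher. Fewer cells of a type and less RNA per cell cannot be told apart in whole testis, and the part of germ cell makeup in the Aqp8 value was not tested.

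Aqp5 and Aqp2 had the lowest levels relative to control among the tested aquaporins. Aqp5, the water channel of salivary, lacrimal and lung epithelium, stood at 1.08 FPKM in control and 0.565 FPKM in Ptbp1_cKO, 0.524 of control or a log2 fold change of -0.93. This is the difference that prompted the choice of the family, and its listed q of 0.00848 is that of all 130 genes at the smallest p of the authors' deposited table. Aqp2, the vasopressin-regulated channel of the kidney collecting duct, stood at 2.64 FPKM in control and 1.75 FPKM in Ptbp1_cKO, 0.662 of control or a log2 fold change of -0.59. Aqp2 did not pass the threshold of q under 0.05 (unadjusted p = 0.00175, q = 0.0950 by the authors' deposited table), whereas Aqp5 did.

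The counting depth differed between the pair. Aqp2 has 1 annotated transcript of 1419 bp, and its values rested on about 682 fragments in control and 410 in Ptbp1_cKO. Aqp5 has 6 annotated transcripts, and its values rested on between 137 and 370 fragments in control and between 65.0 and 176 in Ptbp1_cKO, depending on the coding transcript assumed. The Aqp5 call depended on how the p-value was obtained. With a normal distribution for the deposited test statistic of -2.08 the unadjusted p was 0.0374 and the adjusted p (Benjamini-Hochberg over the tested genes) was 0.99995, and no aquaporin passed. This is not particular to Aqp5. The normal p left 19 of all tested genes called (0.0862%), beside 256 (1.16%) by the deposited q.

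By the calls of the authors' deposited table, 1 of the 8 tested aquaporins, Aqp5, was lower and 0 were higher at q under 0.05. Over all tested genes 0.703% were lower, 0.458% were higher and 1.16% were called in either direction; the family was chosen through this contrast, so nothing is read from its count. At an unadjusted p under 0.05 there were 2 aquaporins, Aqp5 and Aqp2, where 8.98% of all tested genes had such a p. The FPKM was lower in Ptbp1_cKO for 4 of the 8 tested genes and higher for the other 4. The lower ones were Aqp1, Aqp2, Aqp5 and Aqp8, the classical channels that were tested, and the higher ones were Aqp3, Aqp7, Aqp9 and Aqp11, a division noticed after the values were seen and not tested. The median difference of log2(FPKM + 1) over the 8 genes at 0.1 FPKM or more was -0.0070, beside 0.0045 over the 23462 genes at that level, on a scale that understates the change of low genes. Aqp5, which prompted the choice, is among these 8 genes, and without it the middle value is that of Aqp11, 0.0131.

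**Figure D2:**
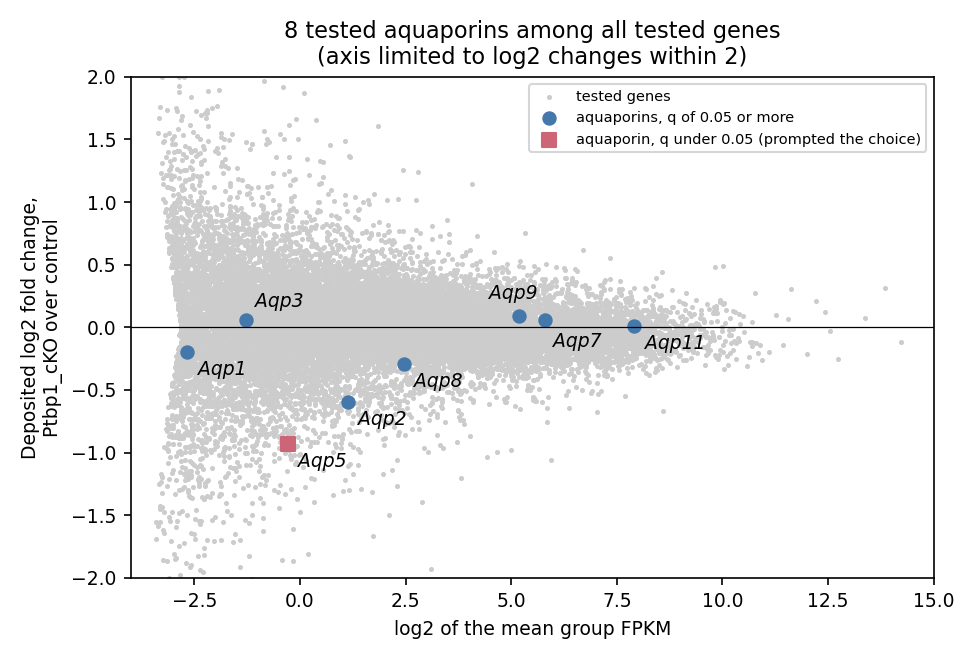
Log2 fold change (Ptbp1_cKO over control, as deposited) against the log2 of the mean group FPKM for all tested genes (grey, axis limited to changes within 2) and the 8 tested aquaporins. Aqp5 (square, -0.93) and Aqp2 (-0.59) lie lowest, and the 3 abundant genes Aqp11, Aqp7 and Aqp9 lie between 0.01 and 0.09.

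Aqp2 and Aqp5 are neighbours as well. Aqp2 (ENSMUSG00000023013.5, chromosome 15, 99579055 to 99584547) ends 6234 bp before Aqp5 (ENSMUSG00000044217.17, 99590782 to 99594829) begins, and both lie on the plus strand. Aqp6, an intracellular anion-permeable channel of the same cluster that is not among the 9 genes, follows after 6570 bp and was almost undetected at 0.0132 and 0.0186 FPKM, or about 3 to 7 fragments per group, and was not tested. On either side of the pair, the nearest tested genes were Faim2 (0.154 and 0.0934 FPKM, q = 0.850 by the authors' deposited table) and Racgap1 (21.4 and 19.7 FPKM, q = 0.999 by the authors' deposited table). Neither passed the threshold.

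Within 200 kb on either side of the Aqp5 start, 15 genes were tested. Of these, 7 had a lower FPKM in Ptbp1_cKO and 8 a higher one, and Aqp5 was the only 1 past the threshold. The actin-binding gene Lima1, named after its value was seen, was the third with an unadjusted p under 0.05, at 5.82 FPKM in control and 4.05 FPKM in Ptbp1_cKO (q = 0.0627 by the authors' deposited table).

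**Figure D3:**
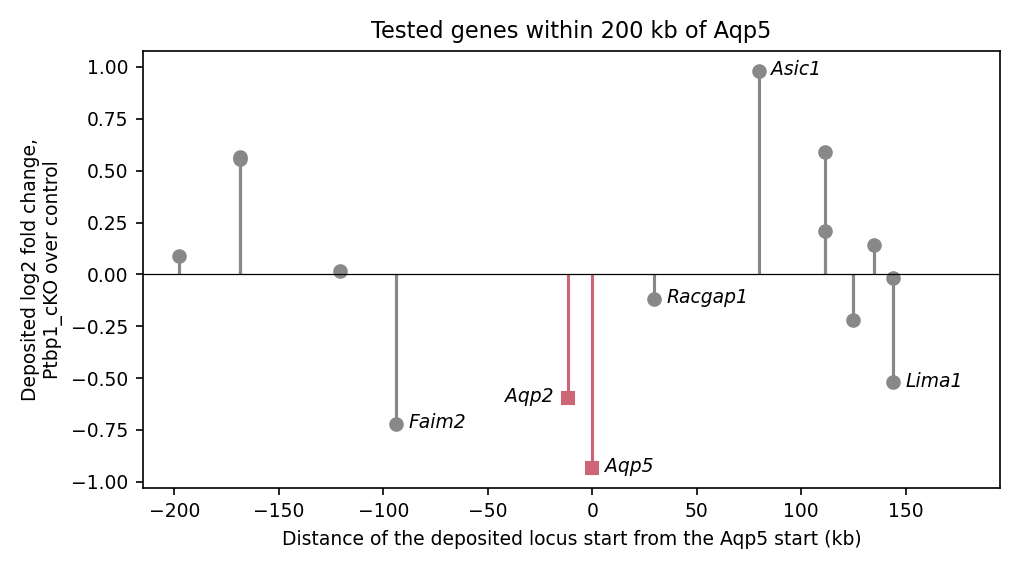
Deposited log2 fold change of the 15 tested genes within 200 kb of Aqp5, against the distance of each locus start from the Aqp5 start in kb. The 2 aquaporins (squares) lie at -0.59 and -0.93, between Faim2 at -0.72 and Racgap1 at -0.12, and genes farther out lie on both sides of 0.

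The pair was also the most alike in coding sequence. Aqp2 (816 bp) and Aqp5 (798 bp) shared 67.5% of coding bases, the highest of the 36 pairs among the 9 genes, whose median was 51.8% and lowest 47.3%. Aqp6 shared 61.8% with Aqp2 and 59.8% with Aqp5. Aqp1 was likewise closest to Aqp2, at 61.0%, and the aquaglyceroporins Aqp3 and Aqp7 were closest to each other, at 57.3%. At 95% identity over 80% of the longest transcript none of the 9 genes had a near-identical copy among the annotated transcripts.

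Of the other classical channels, Aqp1 and Aqp4 were barely expressed, unlike Aqp8 (6.07 FPKM in control and 4.95 FPKM in Ptbp1_cKO). Aqp1, the water channel of red blood cells, capillary endothelium and efferent duct epithelium (ENSMUSG00000004655.5, chromosome 6, 55336432 to 55348555, plus strand), stood at 0.169 FPKM in control and 0.147 FPKM in Ptbp1_cKO, about 89.1 and 70.6 fragments (log2 fold change -0.20, q = 0.999 by the authors' deposited table). Aqp4, the main water channel of astrocytes, stood at 0.00769 and 0.0311 FPKM, at most 8.24 and 30.3 fragments, and was not tested. The deposited Aqp4 locus also takes in an antisense gene, AC133525.2. As counting by strand is not stated in the sources used here, overlapping reads cannot be assigned to Aqp4 with certainty. Of the family members outside the 9 genes, Aqp12 stood at 0.0881 and 0.0834 FPKM without a test, and the lens channel Mip was listed at 0 in both groups.

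Marker levels of cell types that carry aquaporins elsewhere are given beside these values, and their part in them was not tested. All 7 endothelial markers had a higher FPKM in Ptbp1_cKO, with sums of 10.4 FPKM in control and 12.4 FPKM in Ptbp1_cKO, and 4 of 5 red blood cell markers were higher (16.1 and 19.2 FPKM), while Aqp1 was 0.871 of control. The 8 rete testis and efferent duct epithelium markers summed to 38.4 and 38.9 FPKM, of which the germ cell and epithelial gene Epcam alone gave 32.9 and 32.2 FPKM. Of the 8 epididymis markers, 2 were listed at 0 in both groups, and the sum was 6.12 FPKM in control and 12.9 FPKM in Ptbp1_cKO. Most of that rise was Crisp1, a secreted protein gene of the epididymis that went from 0.0482 to 5.90 FPKM (q = 0.00848 by the authors' deposited table). Rnase9 stood at 0.0186 and 0.514 FPKM and Adam7 at 0.00142 and 0.323 FPKM, neither past the threshold. The remaining tested markers, Rnase10 (1.98 and 1.98 FPKM) and Defb21 (4.07 and 4.22 FPKM), gave most of the control sum and were nearly level. All 8 Sertoli cell markers were higher (984 and 1352 FPKM). Clu, which was past the threshold, gave most of that rise, from 853.6 to 1199 FPKM. The 5 adipocyte markers summed to 8.82 and 8.19 FPKM. The 6 Leydig cell markers, given because Aqp9 is known from these cells, summed to 1085 and 1350 FPKM; Insl3 was higher and past the threshold, at 749.6 and 1049 FPKM, while 4 of the 6 had a lower FPKM in Ptbp1_cKO, among them Star at 85.5 and 63.6 FPKM. All 5 macrophage markers had a higher FPKM (20.5 and 29.1 FPKM), with C1qb past the threshold at 11.8 and 16.8 FPKM. Of 5 spermatogonial markers 4 had a higher FPKM (81.2 and 97.1 FPKM), with Kit (3.001 and 4.574 FPKM) and Uchl1 (40.3 and 54.7 FPKM) past the threshold. The 5 peritubular myoid markers were all at a higher FPKM (182.9 and 207.8 FPKM), none past the threshold.

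Genes that work alongside water channels are given from 3 lists; over all tested genes 1.16% were called and 8.98% had an unadjusted p under 0.05, so lists of this size would hold few or no calls at that background. Among 15 genes of salt and bicarbonate transport, which sets up the gradients that water follows, 0 passed the threshold of the authors' deposited table, 3 had an unadjusted p under 0.05, and 8 had a higher and 7 a lower FPKM in Ptbp1_cKO. Their log2 fold changes ran from -0.60 to 0.80, with a median of 0.04. The chloride channel Cftr stood at 6.57 and 5.64 FPKM (q = 0.593 by the authors' deposited table) and the most abundant, the carbonic anhydrase Car2, at 85.8 and 87.9 FPKM. The membrane carbonic anhydrase Car4 stood at 0.650 and 1.13 FPKM and the sodium bicarbonate cotransporter Slc4a4 at 0.675 and 0.446 FPKM, with q = 0.149 and q = 0.250 by the authors' deposited table.

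Of 10 tested genes of glycerol and urea handling 0 passed the threshold of the authors' deposited table, 1 had an unadjusted p under 0.05, and 8 had a higher FPKM in Ptbp1_cKO, with a median log2 fold change of 0.08. That 1 gene was the germ cell glycerol kinase Gk2, at 214.5 FPKM in control and 179.0 FPKM in Ptbp1_cKO (p = 0.007, q = 0.217 by the authors' deposited table), and the most abundant was the mitochondrial glycerol phosphate dehydrogenase Gpd2, at 234.2 and 234.6 FPKM. None of 14 tested genes of cell volume and osmotic response passed and 0 had an unadjusted p under 0.05, with a median log2 fold change of 0.01 and the kinase Wnk1 highest at 186.0 and 184.0 FPKM by the authors' deposited table. The medians of these 3 lists and of the 8 tested aquaporins (-0.09) stand beside 0.0054 over all tested genes above 0. The aquaporin median includes Aqp5, which prompted the choice. Without Aqp5 the middle value is that of Aqp11, 0.01, so nothing is read from the distance to the lists.

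**Figure D4:**
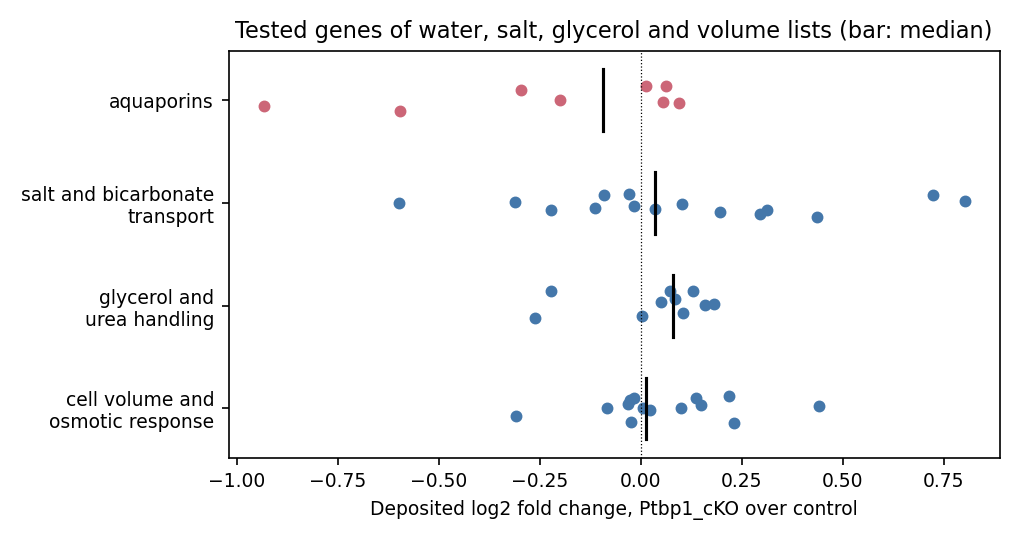
Log2 fold change (Ptbp1_cKO over control, as deposited) for each tested gene (points, jittered vertically) of the aquaporins and of 3 lists of related transport genes, with the median as a bar. The lists have medians between 0.01 and 0.08 and the aquaporins -0.09, with Aqp5 and Aqp2 at the low end of the aquaporins. The aquaporin median includes Aqp5, which prompted the choice; without it the middle value is that of Aqp11, 0.01.

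The genes whose group values were most like those of Aqp5, by the distance of log2 FPKM over the 2 group values and without predicted genes, were Sdsl (1.15 and 0.593 FPKM, distance 0.115), Tmie (1.01 and 0.608 FPKM, distance 0.140) and the amino acid transporter Slc38a1 (1.11 and 0.629 FPKM, distance 0.162). By the authors' deposited table Slc38a1 passed the threshold (q = 0.00848), while Sdsl (q = 0.143) and Tmie (q = 0.221) did not. With 2 values per gene this likeness to Aqp5 says only that level and change were similar.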

How the data were processed

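Whole-testis polyadenylated RNA was sequenced in 3 control and 3 Ptbp1_cKO libraries, grouped by title, with stranded TruSeq libraries per the labels' protocols. Tools in the submitters' processing notes, with no role or setting, are STAR 2.6.1d, Trimmomatic 0.38, bcl2fastq 2.20, Cuffdiff and Cufflinks, on build mm10; annotation release and library normalisation are unstated in these sources. The authors deposited 1 FPKM per gene and group, a log2 fold change, Cuffdiff's test statistic (a signed score) and a p-value and q-value. Recomputed Benjamini-Hochberg values differed from the deposited q by at most 5.2e-07 over 22048 tested genes.

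The call was the deposited q under 0.05, with alternatives by p-value, threshold, pseudocount, floor and centring. Members, lists and rules were chosen with earlier results of these data known. The text names the 9 members, the remaining aquaporins, list members past the threshold, the highest by mean FPKM of the 3 transport lists, the nearest tested genes on the chromosome of the pair and the 3 genes nearest to Aqp5; Gk2, Car4, Slc4a4, Cftr, Epcam, Rnase9, Adam7, Star and Lima1 were added after their values were seen. Of the list symbols, Gyk matched no row. Positions are 1-based on mm10, with GENCODE M21 for exons and transcripts; the Aqp4 identifier differed in version.

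Fragment weights came from single-exon genes of 1500 to 6000 bp with 1 transcript, after deducting 261 bp (control) or 265 bp (Ptbp1_cKO); 100% of 250 and 272 values small enough to hold 1 fragment lay in 3 steps 1% wide. Coding sequences were aligned with Biopython 1.88 and identity taken over the longer one; copies were sought with BLAST 2.17.0. Simulated data with known answers were used to test the code for the normal p and for the reading of fragment steps. The simulated statistics were drawn from a normal distribution, so they cannot show whether Cuffdiff's statistic follows one. The deposited p-values differed from the normal ones: Aqp8, at a statistic of -1.11, had a Cuffdiff p of 0.053 and a normal p of 0.268.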

Additional observations from a re-analysis of the deposited data

How the results depend on the processing

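The 1 aquaporin past the threshold became 0 with a normal p from the deposited statistic (19 of all tested genes were then called), 2 at q under 0.1 (Aqp5 and Aqp2, beside 1.91% of all tested genes), and stayed 1 with adjustment over tested genes of at least 1 FPKM in either group, where Aqp2 had an adjusted p of 0.0810. Aqp5 entered that set only through control (1.08 FPKM, beside 0.565 FPKM in Ptbp1_cKO), so this setting lends its call no support. The median difference of log2(FPKM + 1), -0.0070, was -0.0543 with a pseudocount of 0.1, -0.0870 with 0.01, 0.0131 without a floor on FPKM, -0.118 with a floor of 1 FPKM (which Aqp5 passed only in control) and -0.0026 after centring on expressed genes. Among these settings the median was above 0 only without a floor, which lets in the untested Aqp4. Without Aqp5, which prompted the choice, the middle value at the main floor is that of Aqp11, 0.0131. The sign of the median thus rests on single genes. The 27 recomputed values of single genes kept their sign in all cases, which says little. A changed pseudocount cannot alter a sign, and the centring value (-0.0044) was smaller than the smallest difference (Aqp11, 0.0131). The order of all 9 levels was the same in both groups. The difference of Aqp5 was -0.41 with a pseudocount of 1 and -0.93 without. No paired analysis was possible because the deposited columns hold 1 value per group, and for the same reason no replicate could be left out. Depth limits Aqp4, Aqp6 and Aqp12, which rested on few fragments.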
